A study of Macaca mulatta with 2 samples.

Results

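Microglia are the resident macrophages of the brain, and a set of 44 genes of these cells, of complement and of inflammation was followed in the prefrontal cortex of infant rhesus macaques. The members were chosen by symbol for their known roles, and 43 of the 44 were found among the 33618 genes of the count table. APBB1IP, an adaptor of integrin activation, has no row under its symbol. The samples were bulk cortex from 1 control animal and 1 animal exposed to sevoflurane, an inhaled anesthetic, both labelled as 28 days old. By the labels, the exposures took place on about postnatal days 7, 14 and 28 and lasted 4 h each at 2.5 to 3% sevoflurane. The study's results section gives the same days, whereas its methods place the second and the third exposure later. By the methods, the cortex was taken immediately after the third exposure, and how the control animal was handled is not given in the sources used here. The study's design text counts 3 animals in each group. Since the remaining animals were not analysed here, every value below compares 2 libraries and not 2 conditions, and no test between the groups could be made.

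Microglia survey the tissue with purinergic and chemokine receptors, depend on signals through the receptor CSF1R for survival, and take up cell debris and synapses. Complement tags material for this uptake. C1q starts the classical pathway, C3 is the component on which all complement pathways converge, and the integrin ITGAM forms part of a receptor for cleaved C3. Inflammatory activation runs through Toll-like receptors and the inflammasome to cytokines such as interleukin 1 beta and tumor necrosis factor. In postnatal cortex, microglia with C1q and C3 are known for their part in the removal of synapses.

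Gene reads numbered 16960880 for the control and 9839105 for the sevoflurane animal. Reads were scaled to counts per 1000000 reads (CPM) with edgeR's TMM factors, and the ratio of a gene is the log2 ratio of sevoflurane over control with a prior count of 2. Each ratio carries an exact 95% Clopper-Pearson interval that covers counting error only and leaves out the variation between animals. Of the 43 members, 37 had at least 1 CPM in either library and 6 did not. CPM values are not corrected for transcript length, so levels are compared between libraries and not between genes. On 7 Y-linked genes fell 3 control reads and 4308 sevoflurane reads, the pattern of a female control and a male sevoflurane animal. The study's methods list only females as controls and 1 male in the anesthesia group. Animal, sex and exposure cannot be told apart. All 10 neuron markers, as the labelled tissue calls for, had at least 67.6 CPM in both libraries. Since the tissue was bulk cortex, fewer cells of a type and less RNA per cell cannot be told apart either.

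The 7 receptor and surface genes that define homeostatic microglia were detected above 1 CPM in both libraries, and their summed level was nearly equal, at 243 CPM in the control against 248 CPM in the sevoflurane library. The 43 members together took 10686 control reads, or 0.063% of that library (exact 95% interval 0.0618 to 0.0642%), and 7554 sevoflurane reads, or 0.0768% (0.0751 to 0.0785%). The tested members had a median log2 ratio of 0.35, against -0.0048 over all 18050 tested genes. They leaned toward the sevoflurane library, since 26 of 37 had a ratio above 0 and 11 below it. Among all tested genes, 49.7% were above 0.

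**Figure D1:**
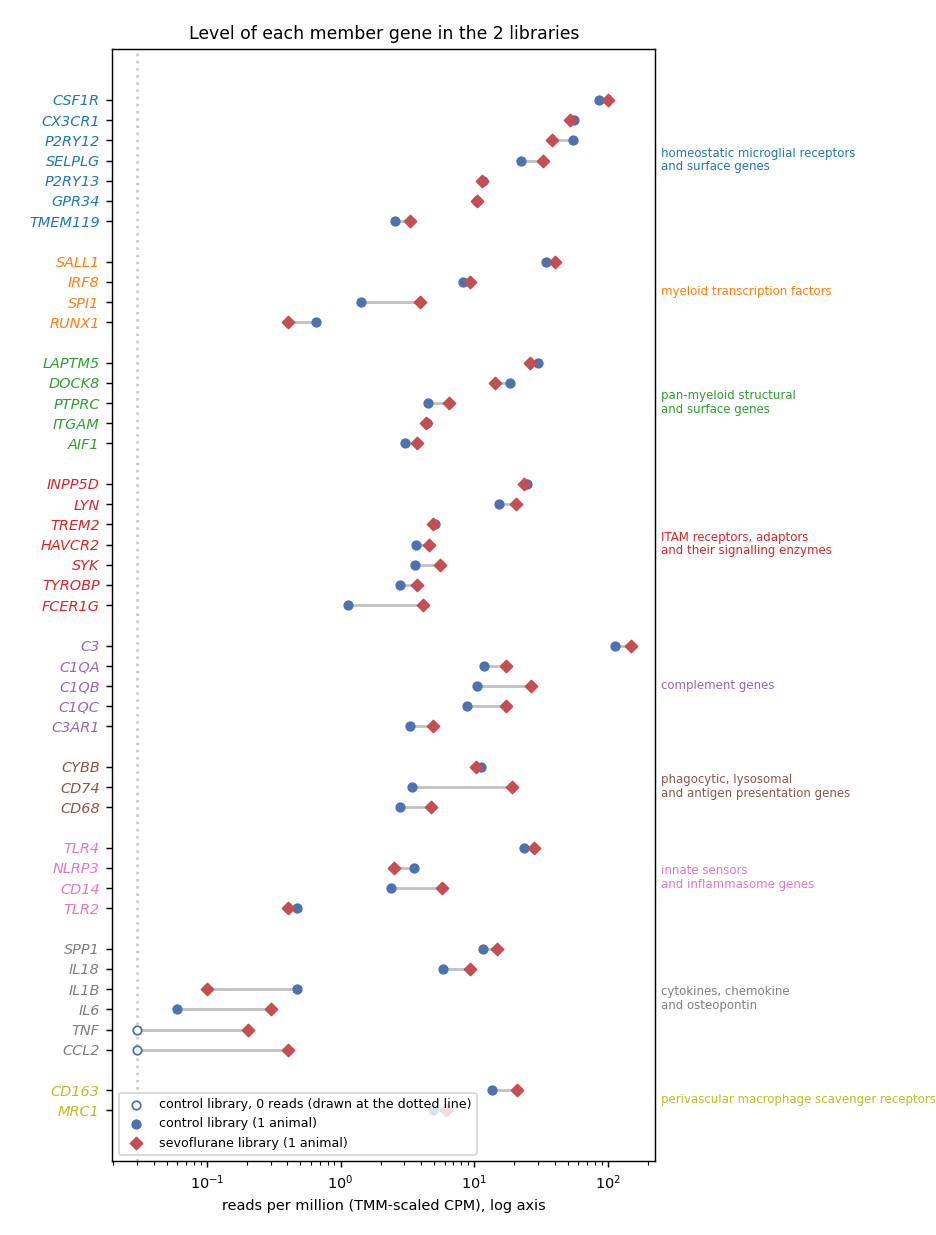
Level of each of the 43 member genes in CPM on a log axis, with 1 point for the control library (blue circle) and 1 for the sevoflurane library (red diamond), grouped by role. Open circles at the dotted line stand for 0 control reads (TNF and CCL2). CD74, FCER1G, SPI1, C1QB and CD14 have the longest gaps among the genes above 1 CPM, all toward the sevoflurane library.

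A gene was called 2-fold higher or lower if the log2 ratio reached 1 in either direction and the interval did not contain equal expression. By this rule 5 of the 37 tested members were higher in the sevoflurane library and 0 were lower, while over all tested genes 7.56% were higher and 5.47% lower. The 5 were CD74, FCER1G, SPI1, C1QB and CD14. Without the fold limit, 19 members had an interval above equal expression, 2 had an interval below it (P2RY12 and DOCK8) and 16 could not be told from equal expression at this depth. The same intervals lay above equal expression in 28.4% of all tested genes and below it in 28.1%. These shares, and the 2-fold shares above, apply to the counts of genes in the lists below. A gene under 1 CPM in 1 library was tested only through the library where it was higher, which favors a 2-fold call.

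**Figure D2:**
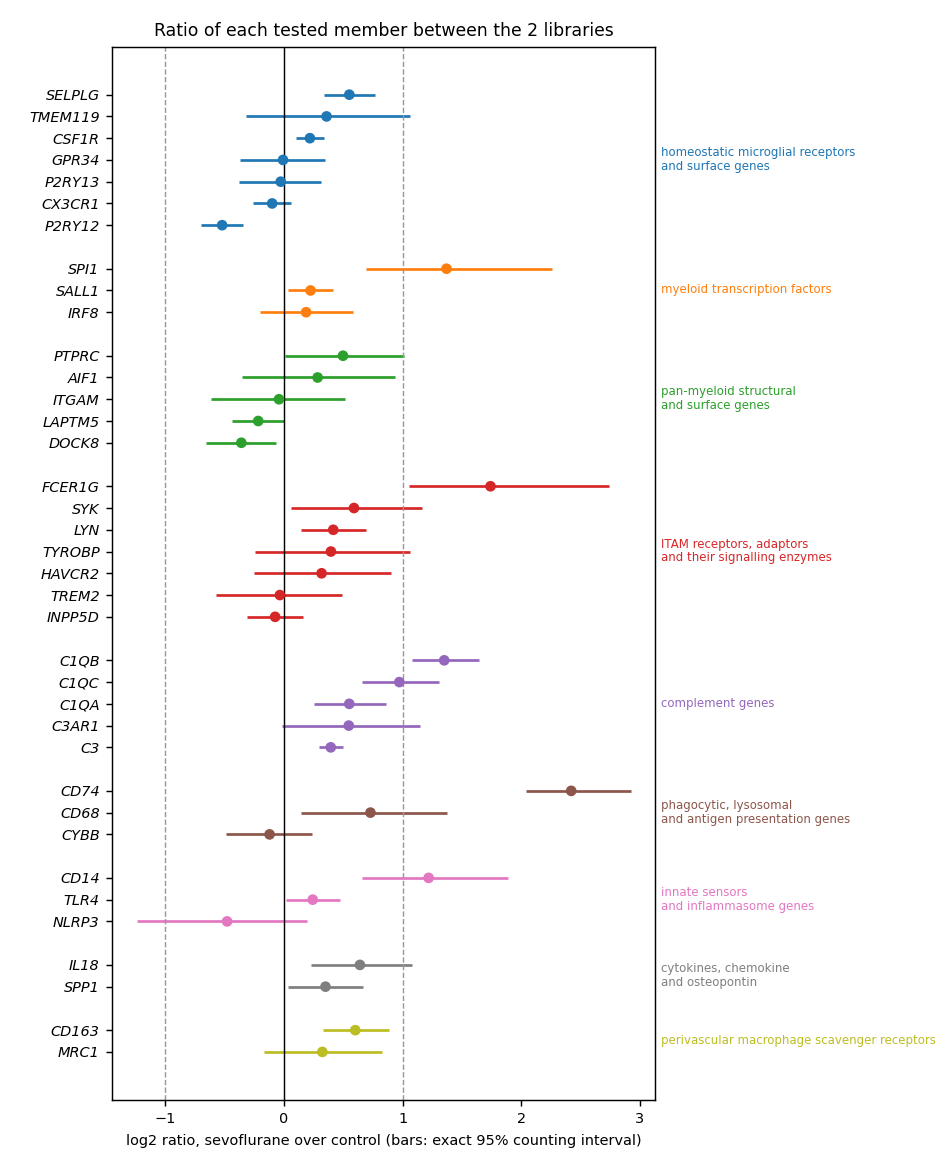
Log2 ratio of sevoflurane over control for the 37 tested members, grouped by role, with exact 95% counting intervals as bars and dashed lines at 2-fold. The homeostatic receptors lie around 0, from -0.52 for P2RY12 to 0.55 for SELPLG, and all 5 complement genes lie to the right of 0.

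Among the homeostatic receptors and surface genes, P2RY12 was lower in the sevoflurane library, SELPLG and CSF1R were higher, and 4 could not be distinguished. P2RY12, the ADP receptor that steers microglial processes toward injury, had 917 control reads and 377 sevoflurane reads, or 54.6 and 37.96 CPM. Its ratio of -0.52 (-0.70 to -0.35) was the lowest of the tested members. CX3CR1, the receptor for the neuronal chemokine fractalkine, had 936 and 516 reads, or 55.7 and 52.0 CPM, and a ratio of -0.10 (-0.26 to 0.06). CSF1R had 1444 and 993 reads, or 85.9 and 99.99 CPM, and a ratio of 0.22 (0.10 to 0.34). SELPLG, the selectin ligand PSGL-1, had 377 and 327 reads, or 22.4 and 32.9 CPM, and a ratio of 0.55 (0.34 to 0.77). The level of 1 receptor relative to another is free of library scaling. Per 100 reads on CSF1R, P2RY12 had 63.5 reads in the control against 37.97 in the sevoflurane library, a ratio 0.598 times as high (exact conditional 95% interval 0.516 to 0.692).

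Among the remaining homeostatic genes, P2RY13 and GPR34 were close to equal in the 2 libraries. P2RY13, a further ADP receptor, had 195 and 113 reads (ratio -0.03), and GPR34, a lysophosphatidylserine receptor, had 177 and 104 reads (-0.01). TMEM119, a microglial surface marker, had only 43 and 33 reads and a ratio of 0.36. Its interval of -0.32 to 1.07 spans from a lower level to more than a doubling. The class median was -0.01 over 7 genes. Some of these genes share their locus. In the RefSeq table of the macaque assembly T2T-MMU8v2.0, P2RY12 and P2RY13 lie within the span of MED12L, and GPR34 within that of CASK. MED12L had 773 control and 584 sevoflurane reads and a ratio of 0.35 (0.20 to 0.51), opposite in sign to P2RY12. The sources used here name no strand setting for the counting, so reads of such overlapping genes may not be separated fully.

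Of the transcription factors, SPI1 was the gene that stood apart. SPI1 encodes PU.1, the factor that sets the myeloid lineage, and it had 24 control reads and 39 sevoflurane reads, or 1.43 and 3.93 CPM. Its ratio was 1.37 with a wide interval of 0.69 to 2.26, and its span overlaps that of SLC39A13, a zinc transporter gene with 405 and 364 reads. IRF8, a partner of PU.1, had 138 and 93 reads and a ratio of 0.19 (-0.21 to 0.58). SALL1, a factor of microglial identity, had 575 and 397 reads and a ratio of 0.22 (0.04 to 0.41). RUNX1 had 11 and 4 reads, below 1 CPM in both libraries, so that a difference was not detectable at this depth.

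The pan-myeloid genes centered on -0.04, the median of 5 tested members. LAPTM5, a lysosomal membrane protein of blood-derived cells and microglia, had 508 and 258 reads (ratio -0.22, -0.44 to 0.00). DOCK8, an activator of the GTPase CDC42 in leukocytes, had 309 and 142 reads and a ratio of -0.36 (-0.66 to -0.07), and a ratio of -0.19 (-0.53 to 0.14) with the control library sampled down to an equal depth. PTPRC, the leukocyte phosphatase CD45, had 76 and 64 reads and a ratio of 0.50, with a lower limit of 0.01 that moved to -0.03 at a ratio of 0.46 when the trend with gene span was subtracted. AIF1, which encodes the microglial stain IBA1, had 51 and 37 reads (0.28, -0.36 to 0.93), and ITGAM, the CD11b chain, had 75 and 43 reads (-0.04, -0.62 to 0.52). Neither of these classical stains could be told from equal expression.

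TYROBP and FCER1G are adaptors with an ITAM motif that pair with surface receptors and signal with the kinases LYN and SYK. INPP5D, the lipid phosphatase SHIP1, restrains this signalling. FCER1G, the common gamma chain of Fc receptors, had 19 control reads and 41 sevoflurane reads, or 1.13 and 4.13 CPM, and a ratio of 1.74 (1.05 to 2.74). TYROBP, also called DAP12, had 47 and 37 reads, and its ratio of 0.40 could not be distinguished from 0 (-0.25 to 1.07). Per 100 reads on TYROBP, FCER1G had 40.4 reads in the control against 111 in the sevoflurane library, 2.72 times as many (1.30 to 5.85). The adaptors thus differed from each other between the libraries by more than counting error.

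TREM2, the lipid receptor that signals through TYROBP, had 85 and 49 reads and a ratio of -0.03 (-0.57 to 0.49). LYN had 257 and 203 reads (0.42, 0.15 to 0.69), and SYK had 61 and 55 reads (0.59, 0.06 to 1.16). Both kinases were therefore higher in the sevoflurane library beyond counting error and below 2-fold. With the control library sampled down, the ratio of SYK was 0.60 with a wider interval, of -0.01 to 1.29. INPP5D had 419 and 235 reads (-0.07, -0.31 to 0.16), and HAVCR2, the checkpoint receptor TIM-3, had 62 and 46 reads (0.32, -0.25 to 0.90).

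All 5 complement members had a ratio above 0, with a median of 0.55, and for 4 of them the interval excluded equal expression. Over all tested genes, the interval lay above equal expression in 28.4%. C1QB had 175 control reads and 266 sevoflurane reads, or 10.4 and 26.8 CPM, and was 2.57-fold higher in CPM (2.12 to 3.13). C1QC had 148 and 173 reads, or 8.81 and 17.4 CPM, and a ratio of 0.97 (0.66 to 1.31), just under the 2-fold limit. C1QA had 198 and 172 reads, or 11.8 and 17.3 CPM, and a ratio of 0.55 (0.25 to 0.86). The 3 genes encode the chains of C1q, are direct neighbours in the gene order C1QB, C1QC, C1QA, and were all higher in the sevoflurane library, by unequal amounts. Per 100 reads on C1QA, C1QB had 88.4 reads in the control against 155 in the sevoflurane library, 1.75 times as many (1.31 to 2.34). For C1QC against C1QA the value was 1.35 (0.986 to 1.84), and for C1QB against C1QC it was 1.30 (0.962 to 1.76). Counting error could give both. With the control library sampled down, the log2 ratio of C1QC (1.26) was above that of C1QB (1.19).

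C3 had 1891 and 1469 reads, or 113 and 148 CPM, and a ratio of 0.39 (0.30 to 0.49). C3AR1, the receptor for the C3a fragment, had 56 and 49 reads and a ratio of 0.55, with an interval that just reached equal expression (-0.02 to 1.15). The C1q chains were higher relative to C3, with 27.6 reads per 100 reads on C3 in the control against 41.6 in the sevoflurane library, 1.51 times as many (1.32 to 1.73).

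The other complement genes did not share a direction. Of 18 further activators of the cascade, 16 were in the table and 9 were tested, of which 2 were at least 2-fold higher and 0 lower. CFB, the factor B protease of the alternative pathway, had 4 control reads and 107 sevoflurane reads and a ratio of 4.82 (4.10 to 7.40). C7, a component of the membrane attack complex, had 35 and 94 reads and a ratio of 2.11 (1.61 to 2.79). C1R, a protease that C1q activates, was lower in the sevoflurane library, with 424 and 136 reads (-0.87, -1.17 to -0.60), and so was MASP1 of the lectin pathway, with 499 and 202 reads (-0.54). MASP2 and MBL2 had no read in either library. Of 12 tested inhibitors, 6 were higher and 5 lower beyond counting error and 0 reached 2-fold, among them CLU, or clusterin, with 11024 and 7651 reads (0.23), and CSMD1, a membrane regulator, with 5846 and 2964 reads (-0.22). Over all tested genes, 28.4% were higher and 28.1% lower beyond counting error. Of 4 other tested receptors, C5AR1, the C5a receptor, was lower, with 188 and 72 reads (-0.62, -1.04 to -0.23), and ITGB2, the chain that pairs with ITGAM, had 162 and 97 reads (0.02).

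CD74 showed the largest ratio of the members. CD74, the invariant chain that guides MHC class II molecules in antigen-presenting cells, had 58 control reads and 190 sevoflurane reads, or 3.45 and 19.1 CPM, and was 5.54-fold higher in CPM (4.11 to 7.57). CD68, a lysosomal protein of phagocytes, had 47 reads in each library and a ratio of 0.73 (0.14 to 1.37), since equal reads in the shallower library are a higher CPM. CYBB, the catalytic subunit of the phagocyte NADPH oxidase, had 188 and 102 reads (-0.12, -0.49 to 0.23).

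The MHC class II genes themselves, looked up after the value of CD74 was seen, did not move with it as a group. MAMU-DRA, the alpha chain of the DR molecule, had 2 control reads and 19 sevoflurane reads, whereas MAMU-DRB1, its beta chain, had 43 and 4 reads and MAMU-DMB, a peptide loading factor, had 41 and 6 reads. MAMU-DPA had 6 and 11 reads and was at least 2-fold higher (1.31, 0.07 to 3.35). Below 1 CPM in both libraries were MAMU-DMA with 3 and 5 reads, MAMU-DRB5 with 8 and 1, and MAMU-DQB1 with 14 and 0. These genes vary between animals and resemble each other, and how reads that match several of them were counted is not given in the sources used here.

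Of the innate sensors, CD14, the co-receptor for bacterial lipopolysaccharide, was at least 2-fold higher, with 40 and 57 reads, or 2.38 and 5.74 CPM, and a ratio of 1.22 (0.66 to 1.89). TLR4, the receptor it serves, had 396 and 277 reads and a ratio of 0.24 (0.02 to 0.47). NLRP3, the sensor of the inflammasome, had 60 and 25 reads and a ratio of -0.48 (-1.24 to 0.19). TLR2 had 8 and 4 reads and stayed below 1 CPM.

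The inflammatory cytokines were scarcely detected in either library. IL1B had 8 control reads and 1 sevoflurane read (95% interval of the log2 ratio -7.71 to 0.66). IL6 had 1 and 3 reads, TNF had 0 and 2 reads, and no fold is given for them since both libraries were at or under the floor of 3 reads (0.179 CPM in the control against 0.302 CPM in the sevoflurane library). CCL2, a monocyte-attracting chemokine, had 0 control reads and 4 sevoflurane reads and stayed below 1 CPM in both libraries, with an exact lower 95% limit of 1.12-fold and no upper limit. At this depth a difference in IL1B, IL6 or TNF was not detectable. Of the better covered members of this class, IL18, an inflammasome-dependent cytokine, had 99 and 92 reads (0.64, 0.23 to 1.08), and SPP1, the secreted glycoprotein osteopontin, had 196 and 148 reads (0.35, 0.04 to 0.67).

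Around these cytokines, 21 of 28 listed genes of cytokine and Toll-like receptor signalling were tested, with a median of 0.05, and 2 were at least 2-fold higher and 0 lower. IL1R1, the receptor for interleukin 1, had 125 and 196 reads and a ratio of 1.39 (1.08 to 1.74). GSDMD, the pore former of pyroptosis, had 16 and 29 reads and a ratio of 1.48 (0.69 to 2.60). IL6ST, the shared gp130 receptor, had 5029 and 3387 reads (0.19), and TGFBR1, a receptor for TGF-beta, had 690 and 255 reads (-0.67). IL10 had no read in either library. Of 14 NF-kB subunits and feedback genes, 7 were higher and 4 lower beyond counting error, against 28.4% and 28.1% of all tested genes. NFKBIA, the inhibitor IkB alpha and itself an NF-kB target, had 307 and 505 reads and a ratio of 1.47 (1.27 to 1.69). BCL3, a nuclear IkB protein, had 18 and 26 reads (1.18, 0.37 to 2.24), while RELB, a subunit of the noncanonical pathway, was lower with 144 and 36 reads (-1.21, -1.81 to -0.71). The kinase CHUK had 836 and 419 reads (-0.24, -0.41 to -0.07), and IKBKB had 730 and 390 reads (-0.15, -0.33 to 0.03).

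Perivascular macrophages line the vessels and meninges and carry scavenger receptors that parenchymal microglia express little. CD163, the hemoglobin scavenger receptor, had 229 and 206 reads, or 13.6 and 20.7 CPM, and a ratio of 0.60 (0.33 to 0.88). MRC1, the mannose receptor CD206, had 82 and 61 reads (0.32, -0.17 to 0.83). A list of 10 further border macrophage markers had a nearly equal sum, with 162 CPM in the control against 156 CPM in the sevoflurane library. STAB1 held most of this sum, with 2023 of 2723 control reads and 1120 of 1545 sevoflurane reads. The ratios of the 8 tested genes ranged from -0.63 to 0.56. None of them, among them LYVE1 with 112 and 74 reads, differed beyond counting error. CD209 of this list had no read in either library.

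Markers of blood cells and of the meninges differed between the libraries in the same direction as CD74, FCER1G, SPI1 and CD14, which blood monocytes or neutrophils express as well. The 14 markers of blood monocytes and neutrophils held 68 control reads and 124 sevoflurane reads, or 4.05 and 12.5 CPM. Of the 6 tested, 4 were at least 2-fold higher, but these 4 reached 1 CPM only in the sevoflurane library. The filter thus favored such a call for them. MPO had 1 and 31 reads, S100A9 had 0 and 15, S100A8 had 0 and 11, and CSF3R had 1 and 12. In the control library 5 of the 14 had no read and in the sevoflurane library 0 of the 14, while the other 2 tested, FCGR3 with 18 and 14 reads (0.35) and PLAC8 with 26 and 9 reads (-0.68), could not be distinguished from equal expression. The 8 red blood cell markers had a summed level of 25.3 CPM in the control against 82.3 CPM in the sevoflurane library, and HBB had 350 and 672 reads. The 10 meningeal fibroblast and choroid plexus markers had a summed level of 211 and 454 CPM, and 6 of the 9 tested were at least 2-fold higher, among them SLC13A4 with 62 and 650 reads. TTR of this list had 2 and 31 reads and reached 1 CPM only in the sevoflurane library. Of 15 markers of T, NK and B cells, 5 had no read in either library, and the summed level was 34.9 and 23.7 CPM. CD4, which myeloid cells also express, held 531 and 182 of these reads, and the other 14 markers summed to 3.27 and 5.34 CPM. The part of blood and meningeal cells in the ratios of the members was not tested.

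**Figure D3:**
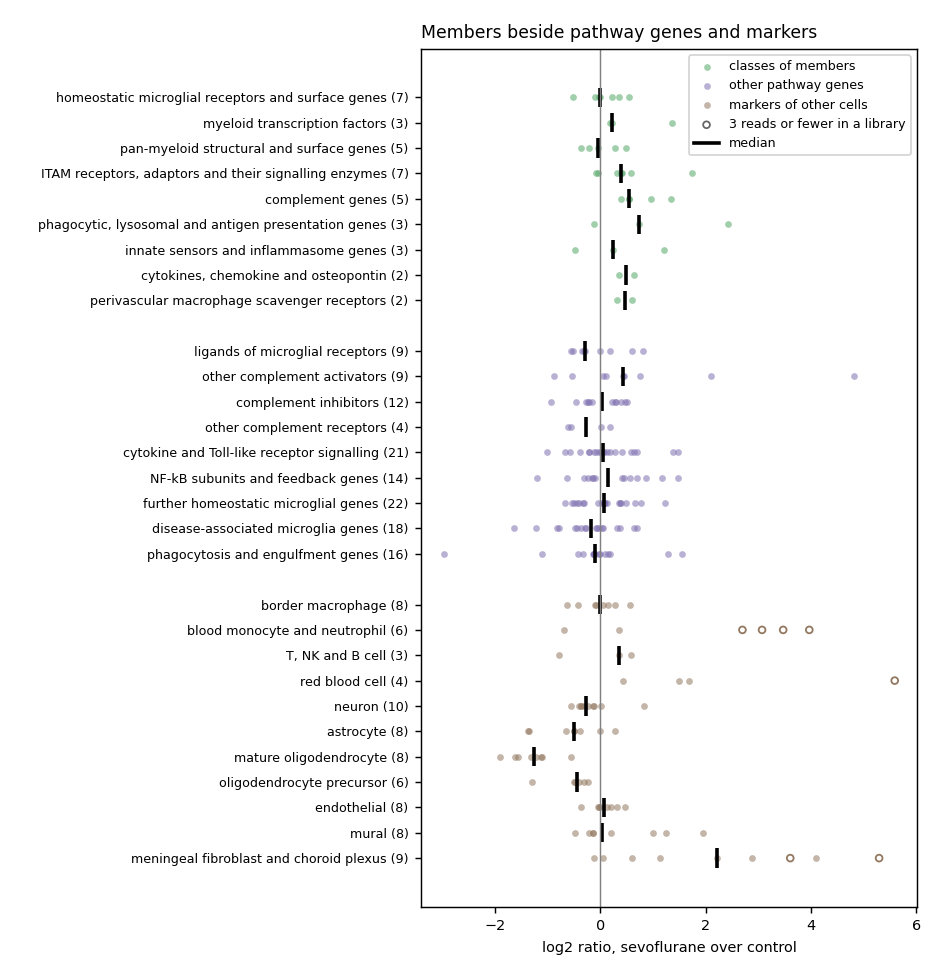
Log2 ratio of sevoflurane over control for each tested gene (points) in the classes of members, in lists of other pathway genes and in lists of markers of other cells, with the number tested in parentheses and the median as a black bar. Open points have 3 reads or fewer in a library, so their place depends on the prior count, and no median is drawn where they make up a large part of a list. The homeostatic class and the border macrophages center on 0, while blood and meningeal markers extend to the right and mature oligodendrocyte markers to the left.

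Markers of other glia were mostly lower. All 8 markers of mature oligodendrocytes were lower in the sevoflurane library, with a median of -1.26, and 7 were at least 2-fold lower. Of 8 astrocyte markers, 6 were lower and 1 higher beyond counting error, with a median of -0.50 over the list. GFAP (-1.35) and AQP4 (-1.38) were at least 2-fold lower. All 6 oligodendrocyte precursor markers were lower beyond counting error, with a median of -0.43, and GPR17 (-1.29) was at least 2-fold lower. Over all tested genes, 28.1% were lower beyond counting error and 5.47% at least 2-fold lower. The neuron markers had a median of -0.27. Endothelial and mural markers had medians close to 0, at 0.06 and 0.04. The mural markers were spread from -0.49 to 1.96, with 4 higher and 2 lower beyond counting error. Of these, ACTA2 (1.24) and MYH11 (1.96) were at least 2-fold higher. The part of these lists in the ratios of the members was not tested.

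The make-up of the member reads differed between the libraries, which does not depend on the library scaling. The homeostatic genes took 38.3% of all member reads in the control (exact 95% interval 37.3 to 39.2%) and 32.6% in the sevoflurane library (31.5 to 33.7%). The complement genes took 23.1% (22.3 to 23.9%) and 28.2% (27.2 to 29.2%), and the phagocytic, lysosomal and antigen presentation genes 2.74% and 4.49%. Per 100 reads on the 7 homeostatic genes, the 3 C1q genes held 12.7 reads in the control against 24.8 in the sevoflurane library, 1.95 times as many (1.71 to 2.22). CD74 held 1.42 and 7.71 reads per 100, or 5.44 times as many (4.01 to 7.46).

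**Figure D4:**
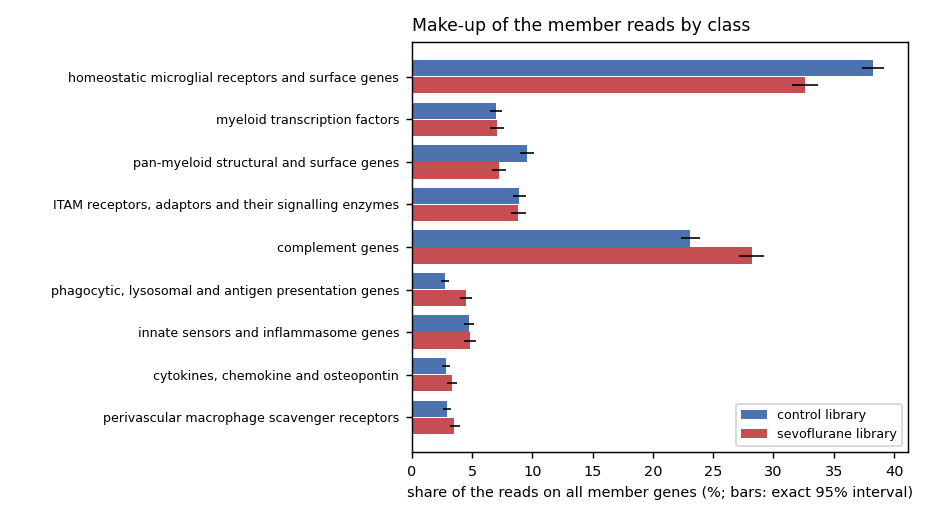
Share of the reads on all 43 members, in percent, that falls on each class in the control (blue) and the sevoflurane library (red), with exact 95% binomial intervals for counting error. The share of the homeostatic class is smaller in the sevoflurane library (32.6% against 38.3%) and that of the complement class larger (28.2% against 23.1%).

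Neurons and glia signal to microglia with ligands, some of which bind receptors outside the members. Of 10 listed ligands, 9 were tested, with a median of -0.29. CX3CL1, fractalkine, had 5514 and 4961 reads and a ratio of 0.61 (0.55 to 0.66), so that per 100 reads on its receptor CX3CR1 it had 589 reads in the control against 961 in the sevoflurane library. CD47, the signal that restrains phagocytosis, had 9177 and 3770 reads and a ratio of -0.52 (-0.58 to -0.47), whereas its receptor SIRPA had 10194 and 5999 reads (-0.01). The CSF1R ligands, named here after their values were seen, were IL34 with 1035 and 492 reads (-0.31, -0.47 to -0.16) and CSF1 with 235 and 113 reads (-0.29, -0.63 to 0.03). CSF1R thus had 114 reads per 100 reads on its ligands in the control against 164 in the sevoflurane library, 1.44 times as many (1.27 to 1.64).

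Further lists of microglial states and functions were spread around 0. Of 22 further tested homeostatic genes, 7 were higher and 4 lower beyond counting error, with a median of 0.07. In that list MEF2C, which neurons also express, had 27243 and 16702 reads (0.05), and SLCO2B1, a transporter of microglia, had 1084 and 675 reads (0.08). Of 18 tested genes of disease-associated microglia, 3 were higher and 8 lower, with a median of -0.18. Over all tested genes, 28.4% were higher and 28.1% lower beyond counting error. LGALS3, or galectin 3, was at least 2-fold lower with 82 and 20 reads (-1.22), and so was FABP5, a fatty acid binding protein, with 100 and 18 reads (-1.64). APOE, which astrocytes also make, had 6646 and 5122 reads (0.38), and CTSB, a lysosomal protease, had 9372 and 5227 reads (-0.08).

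Of 16 tested genes of phagocytosis and engulfment, CD36, a scavenger receptor, was lower with 229 and 16 reads (-2.97, -3.91 to -2.35). MEGF11, with 164 and 239 reads (1.29), and STAB2, with 11 and 22 reads (1.56), were at least 2-fold higher. LRP1, a large endocytic receptor, had 24473 and 15983 reads (0.14). The list had a median of -0.10.

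Compact genes among the members tended to have the larger ratios. The 14 tested members that span less than 10 kb, introns included, had a median of 0.47, and the 23 longer ones had a median of 0.24. Over all tested genes with a RefSeq span, the medians were 0.02 for 3880 genes under 10 kb and -0.02 for 11197 longer ones. At least 2-fold higher were 398 of the 3880 compact genes and 626 of the 11197 longer ones. Compact genes were thus called higher more often over the whole table too. Among the members, 3 of the 14 and 2 of the 23 were called. Across the 37 members, Spearman's rho between span and ratio was -0.37, against -0.01 over 15077 genes; genes of 1 library pair share depth and scaling and are not independent replicates. With the median ratio of genes of similar span subtracted, 5 members were at least 2-fold higher and 0 lower, as were 1368 and 995 of all genes. The medians subtracted lay between -0.06 and 0.09, too small to take any of the 5 below 2-fold. Their unchanged number therefore says nothing about span.

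**Figure D5:**
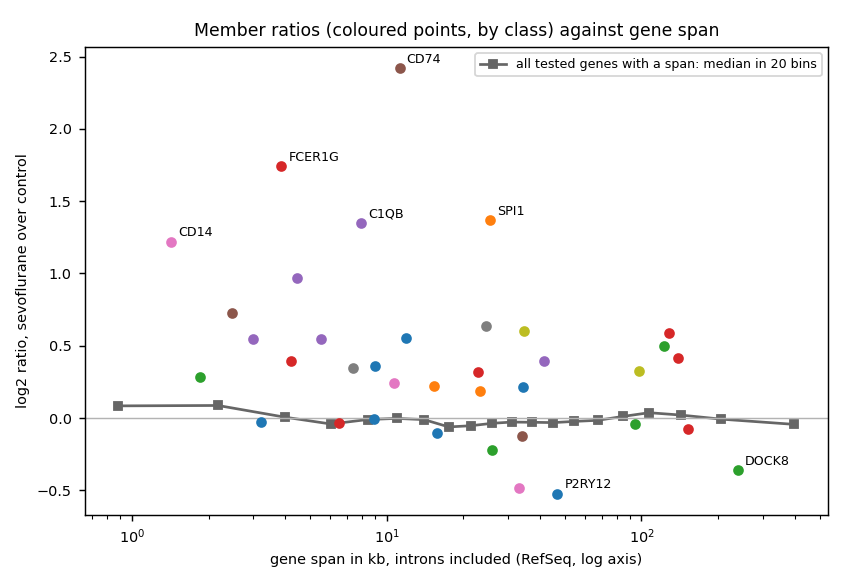
Log2 ratio of sevoflurane over control against gene span in kb (log axis, introns included) for the 37 tested members, colored by class as in the plot of ratios, with the median over all tested genes in 20 bins of span as gray squares. FCER1G, CD14 and C1QB are compact genes with high ratios, CD74 and SPI1 are longer, and the gray medians stay between -0.06 and 0.09.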

How the data were processed

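The table that the authors deposited holds raw counts of reads on each gene for 2 prefrontal cortex RNA libraries, 1 column each. The submitters' processing notes name HISAT2 2.0.4, and the counting tool, genome build, annotation and strand setting are not given in the sources used here. Columns were matched to groups by sample title.

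From the counts, TMM factors (edgeR 4.0.16, R 4.3.3) were computed, which came to 0.991 (control) and 1.01 (sevoflurane). Genes needed 1 CPM or more in 1 of the libraries. Log2 ratios used a prior count of 2. Exact 95% Clopper-Pearson limits for the sevoflurane share of a gene's reads, and exact conditional limits for ratios between genes, came from scipy 1.17.1 (Python 3.11.15, numpy 2.4.6, pandas 2.3.3, matplotlib 3.10.9). They cover counting error only. With 1 library per group edgeR's test had no residual degrees of freedom, and p-values are not given. The procedure was tested on simulated data.

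The members, lists, gene pairs and thresholds were chosen with earlier results of these data known. All members are named. Of the other pathway lists, genes with a 2-fold difference and the 2 with the most reads are named, and of the marker lists those with 0 reads or a 2-fold difference. A gene that the rule would name is not reported here. LYVE1, STAB1, FCGR3, PLAC8 and CD4 were added after their values were seen. Spans and gene order came from the RefSeq table of T2T-MMU8v2.0, to which all 43 members matched by symbol. Levels per transcript length, promoter motifs and sequences were not analysed here. Scaling was also done by library totals, the upper quartile or DESeq2 1.42.0 size factors. Further alternatives were other filters, prior count, interval and fold limits, a control library thinned to the other's depth, and, chosen after seeing the data, removal of the span trend.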

Additional observations from a re-analysis of the deposited data

How the results depend on the processing

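The median of the members ranged from 0.32 to 0.40. The median of the homeostatic class, at -0.01, ranged from -0.06 to 0.02, and the signs of GPR34, TREM2 and INPP5D, all within counting error of 0, turned under some alternatives. Scaling shifted all genes by at most 0.027 (library totals).

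With a filter of 5 CPM, which leaves out SPI1 and FCER1G, 3 members were at least 2-fold higher, as were 570 of all genes, with 501 lower. With a filter of 1 read, the cytokine class, which then gains IL1B, IL6, TNF and CCL2, had a median of 0.88. A limit of 1.5-fold gave 10 members higher (2604 genes higher and 2141 lower over the table), and 4-fold gave 1, CD74 (352 and 221). With the stricter confidence level, 11 members were higher and 1 lower beyond counting error, against 18% and 18.4% of all tested genes, and SALL1, PTPRC, SYK, LYN, CD68, TLR4, IL18, SPP1 and DOCK8 were no longer distinguished. With the control library sampled down, 1 was lower, since DOCK8 could no longer be distinguished (-0.19). P2RY12 was the member still lower in both cases. C3AR1 was higher beyond counting error with library totals and with the span trend removed. The intervals of SYK with the control library sampled down (0.60) and of PTPRC with the span trend removed (0.46) reached equal expression at nearly the reported ratios, and C1QC passed 2-fold when sampled down (1.26). The removal of the span trend was chosen after seeing the data. No paired analysis was possible because there is a single library on each side, so no replicate could be left out either. The depth of the sevoflurane library limits members under about 1 CPM.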
